A study of Homo sapiens with 9 samples.

Results

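The genes described here are 8 genes at and around CDKN2A on the short arm of chromosome 9, in band 9p21: CDKN2A, CDKN2B, CDKN2B-AS1, MTAP, KLHL9, IFNE, DMRTA1 and FOCAD, out of 62666 genes in the table. They were chosen by name because CDKN2A and CDKN2B had 0 counts in all 9 libraries of the series, to see which neighbours are also silent. Those zeros are therefore given as a description, with no test. Polyadenylated RNA of 3 human mammary epithelial cell lines of one lineage was sequenced, with 3 libraries per line. MCF10A is an immortalised line that does not form tumours. MCF10AT1 was derived from it with an activated HRAS oncogene and stands for a premalignant stage. MCF10Ca1a was derived further along that lineage and forms tumours. All 3 lines grew in medium with 10 µg/mL insulin, 20 ng/mL epidermal growth factor, 500 ng/mL hydrocortisone, 100 ng/mL cholera toxin and 2 mM glutamine. MCF10A and MCF10Ca1a received 5% horse serum and MCF10AT1 received 2.5%, so serum and line cannot be told apart in a comparison with MCF10AT1. Each stage is a single cell line, so stage and line cannot be told apart either. The labels do not say that the libraries of a line came from separate cultures, and the p-values measure only the spread between these libraries, which may be technical.

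CDKN2A encodes p16INK4a, which inhibits the cyclin D kinases CDK4 and CDK6 and so keeps the RB protein active, and, from a first exon of its own, p14ARF, which binds and inhibits the ubiquitin ligase MDM2. CDKN2B encodes p15INK4b, another inhibitor of CDK4 and CDK6. CDKN2B-AS1 is a long antisense RNA, also called ANRIL, that runs across CDKN2B and overlaps CDKN2A only at its upstream end. The locus is a frequent site of loss in human tumours, often together with MTAP, and MCF10A has been described as a line that lacks CDKN2A. No DNA measurement was used here, so a missing gene and a silent gene cannot be told apart.

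The stretches of DNA just before the start sites of the silent coding genes CDKN2A and CDKN2B and of the 4 expressed genes of the set nearest to CDKN2A are printed here so that the silent and the expressed starts can be read side by side. They are from RefSeq on GRCh38.p14, 5′ to 3′ on the strand of the gene, cut to the bases outside the gene's annotated exons, with each CG dinucleotide in capitals. For CDKN2A the upstream of its start sites is shown, the one that gives p14ARF.
CDKN2A (chr9:21995325-21995574, minus strand): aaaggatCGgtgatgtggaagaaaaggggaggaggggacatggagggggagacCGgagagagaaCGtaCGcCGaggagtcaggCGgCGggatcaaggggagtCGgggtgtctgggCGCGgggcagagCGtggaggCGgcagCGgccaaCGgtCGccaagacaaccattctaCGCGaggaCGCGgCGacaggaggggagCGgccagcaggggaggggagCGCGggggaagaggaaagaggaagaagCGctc
CDKN2B (chr9:22009364-22009555, minus strand): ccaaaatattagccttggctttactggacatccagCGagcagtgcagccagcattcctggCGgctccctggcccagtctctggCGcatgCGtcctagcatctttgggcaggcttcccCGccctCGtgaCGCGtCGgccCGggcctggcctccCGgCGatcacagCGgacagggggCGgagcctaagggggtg
MTAP (chr9:21802386-21802542, plus strand): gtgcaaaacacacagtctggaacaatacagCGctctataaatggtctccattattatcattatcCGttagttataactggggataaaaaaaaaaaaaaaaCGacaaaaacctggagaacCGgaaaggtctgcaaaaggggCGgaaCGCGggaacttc
KLHL9 (chr9:21335405-21335654, minus strand): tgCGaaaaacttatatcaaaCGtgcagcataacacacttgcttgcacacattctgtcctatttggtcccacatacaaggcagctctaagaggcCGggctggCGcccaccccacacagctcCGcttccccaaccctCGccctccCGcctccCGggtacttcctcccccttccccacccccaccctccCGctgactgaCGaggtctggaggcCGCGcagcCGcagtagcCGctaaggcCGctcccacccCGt
IFNE (chr9:21482314-21482563, minus strand): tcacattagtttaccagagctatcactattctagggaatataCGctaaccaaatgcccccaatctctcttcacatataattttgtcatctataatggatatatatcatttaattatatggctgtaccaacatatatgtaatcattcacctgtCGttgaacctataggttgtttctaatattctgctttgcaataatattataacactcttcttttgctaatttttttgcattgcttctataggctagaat
DMRTA1 (chr9:22446574-22446823, plus strand): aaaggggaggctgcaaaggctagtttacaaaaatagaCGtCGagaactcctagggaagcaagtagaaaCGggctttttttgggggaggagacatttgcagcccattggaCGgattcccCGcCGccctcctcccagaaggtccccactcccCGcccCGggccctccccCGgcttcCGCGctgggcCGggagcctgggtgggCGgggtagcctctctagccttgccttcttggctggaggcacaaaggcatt
All 8 genes matched the RefSeq promoter table, with 9 windows of 300 bases because CDKN2A has a pair of starts 20.5 kb apart. CG reads the same on both strands and was the motif searched. The upstream CDKN2A window held 28 CG and the downstream one 26, and CDKN2B held 25. Of the expressed neighbours, KLHL9 held 19 CG, DMRTA1 16, MTAP 15 and IFNE 2, and FOCAD held 39. Over all 35116 windows the median was 14, and 96.0% held at least 1. At least as many CG as at the upstream CDKN2A start were found in 26.2% of all windows, as many as at CDKN2B in 32.0%, as many as at CDKN2B-AS1, which held 36, in 12.7%, and as many as at IFNE in 89.0%. The silent starts thus each held more CG than those of KLHL9, DMRTA1, MTAP and IFNE and fewer than that of FOCAD. Whether this bears on their silence was not tested.

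Library totals were 62.9 to 69.5 M counts (mega-counts) in MCF10A and MCF10AT1 and 32.9 to 35.2 M in MCF10Ca1a. A count of 0 was read as allowing up to 3 counts, which is 0.043 to 0.0483 CPM (counts per M counts of the library) in the deeper lines and 0.0838 to 0.0892 CPM in MCF10Ca1a, for counting error only. All 8 mammary epithelial markers (EPCAM, CDH1, KRT5, KRT8, KRT14, KRT17, KRT18 and TP63) were detected. Their summed level per transcript length (TPM) was 2390 to 3270 in MCF10A, 3380 to 3820 in MCF10AT1 and 3990 to 4110 in MCF10Ca1a. The markers did not move together. KRT17 rose in that order of lines, with means of 670, 742 and 1830 TPM. KRT14 fell, with 205, 38.8 and 4.78 TPM, and KRT5 had 1420, 1630 and 420 TPM. Of the markers of other cell types, the T cell gene CD3E was at 0, and the leukocyte gene PTPRC, the fibroblast gene COL3A1 and the endothelial genes VWF and CDH5 never passed 3 counts. At 3 counts or fewer were 1 of 4 fibroblast, 2 of 3 immune and 2 of 3 endothelial markers. The summed fibroblast markers were 6.4 to 7.18 TPM in MCF10A, 27.5 to 31.4 in MCF10AT1 and 1.92 to 2.29 in MCF10Ca1a, mostly DCN in MCF10AT1, mostly COL1A1 in MCF10Ca1a, and both in MCF10A. The summed immune markers, which were nearly all CD68, were 8.33 to 13.0, 2.65 to 2.68 and 30.2 to 33.0 TPM in the same order, and the endothelial ones, mostly PECAM1, 0.554 to 0.746, 0.789 to 1.22 and 15.6 to 20.8 TPM. Their part in the differences between the lines was not tested.

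At the core of the locus 3 of the 8 genes were at or under 3 counts in every library. CDKN2A (ENSG00000147889.18, chr9:21967753-21995301, minus strand, with all gene positions from GENCODE 29 on GRCh38) had 0 counts in each of the 9 libraries, and so did CDKN2B (ENSG00000147883.12, chr9:22002903-22009363, minus strand). CDKN2B-AS1 (ENSG00000240498.9, chr9:21994778-22121097, plus strand) had 1 count, in MCF10Ca1a replicate 2, and 0 in the other libraries, which places it just outside the rule of 0 counts. No line stood above another at these genes, and the zeros allow at most 0.0483 CPM in a library of MCF10A or MCF10AT1 and 0.0892 CPM in one of MCF10Ca1a. Among all 62666 genes 63.9% were at or under 3 counts in all libraries, as were 24.3% of the 19835 protein-coding genes, and 14.3% of the protein-coding genes were at 0 throughout. In bulk RNA, fewer cells that express a gene and less RNA per cell cannot be told apart.

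The transcript tables give the same picture. All 14 annotated CDKN2A transcripts in the table, those of p16INK4a and p14ARF included, and all 3 of CDKN2B had 0 counts in every library. Of the 28 CDKN2B-AS1 transcripts 27 were at 0 and 1 held the lone count. CDKN2B-AS1 lies antisense over CDKN2B and over the upstream end of CDKN2A. The libraries were stranded, but whether the counting used strand is not given in the sources used here, and the genes that overlap this pair antisense held at most 3 counts in a library.

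An unbroken run of 13 annotated genes around CDKN2A, 3 of them protein-coding, stayed at or under 3 counts in all 9 libraries. It held, in order, ENSG00000264545, TUBB8P1, ENSG00000265194, ENSG00000279670, ERVFRD-3, CDKN2A-DT, CDKN2B-AS1, CDKN2A, ENSG00000266446, CDKN2B, UBA52P6, ENSG00000274055 and ENSG00000277653. Only 3 of them had any count, and the highest value was 3, for ENSG00000264545, a protein-coding model that overlaps MTAP and CDKN2B-AS1. The run ended at MTAP, which starts at -192.8 kb from the CDKN2A start (negative for lower coordinates), and at the long intergenic RNA ENSG00000236921, at 219.4 kb, with 412.2 kb between these starts. The first 5 of the run overlap the annotated span of MTAP, which reaches 165 counts, so a part of this stretch lies inside an expressed gene. MTAP-209, the annotated transcript that holds nearly all MTAP counts, ends at chr9:21862367. TUBB8P1 and ENSG00000265194 lie before that end, and ENSG00000279670 and ERVFRD-3 lie past it. The run around CDKN2A was not the longest such run within 5 Mb: 24 genes between FOCAD and KLHL9, 11 of them protein-coding, formed a longer one, and 12 genes between ENSG00000260912 and MLLT3 one of nearly the same length. Since 63.9% of all genes are at or under 3 counts, runs of this kind do not set the locus apart. The nearest protein-coding genes above 3 counts in some library were MTAP on the lower side and DMRTA1, at 451.5 kb, on the upper side.

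**Figure D1:**
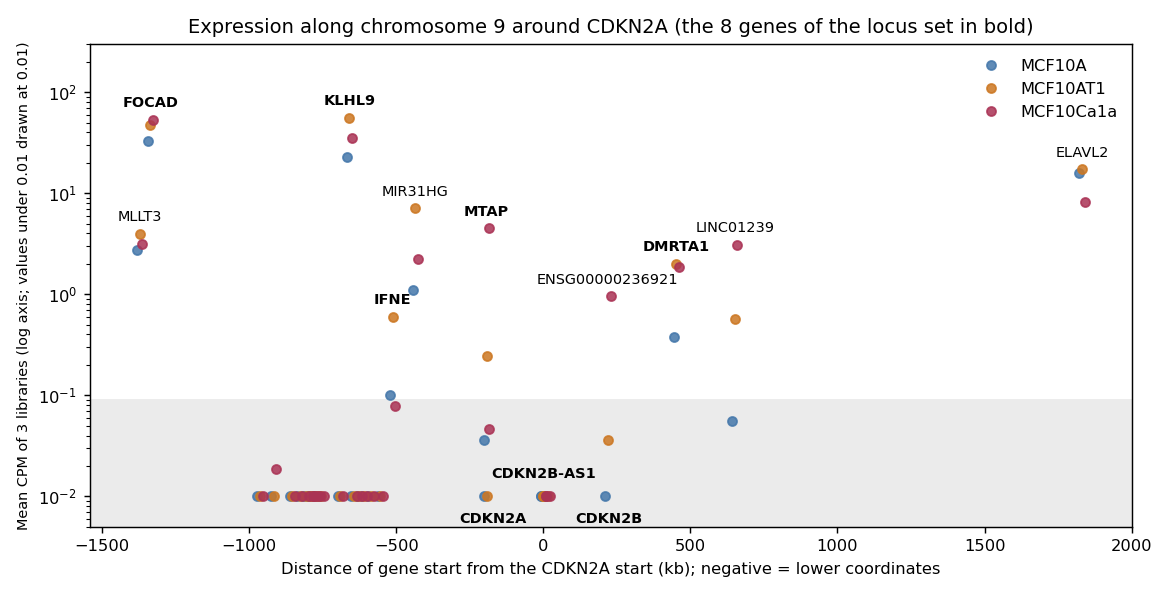
Mean CPM of 3 libraries per line (log axis) against the distance of each gene's start from the CDKN2A start in kb, for protein-coding or tested genes and the 8 genes of the set. The grey band marks values up to 0.0892 CPM, which is 3 counts in the shallowest library, and CDKN2A, CDKN2B and CDKN2B-AS1 lie at its bottom in all lines while MTAP leaves it in MCF10AT1 and MCF10Ca1a.

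Within 5 Mb of the CDKN2A start 101 of 132 annotated genes (76.5%) and 23 of 42 protein-coding genes (54.8%) were at or under 3 counts in all libraries. The type I interferon genes, secreted antiviral cytokines that are mostly made only after infection, lie between FOCAD and MTAP. Of 16 interferon genes measured there, 15 were at or under 3 counts in all libraries and IFNE was the exception. Without the interferon genes 8 of 26 protein-coding genes (30.8%) were, against 24.3% of all protein-coding genes. Setting aside a set with 15 of 16 genes at the floor lowers the share by construction. The 26 genes left still include CDKN2A and CDKN2B, which were chosen for their zeros. These shares are therefore a description, and no conclusion is drawn from them.

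Between the lines, 5 of the 8 genes passed the filter on low counts and could be tested: MTAP, KLHL9, IFNE, DMRTA1 and FOCAD. MTAP passed it through MCF10AT1 and MCF10Ca1a and IFNE through MCF10AT1 alone, so they are not a neutral sample of the locus. IFNE could be tested only because it was high in MCF10AT1, and its differences from that line are given as a description. The first step is MCF10AT1 against MCF10A, which asks what differs at the premalignant stage, the second is MCF10Ca1a against MCF10AT1, which asks the same of the tumour-forming line, and the whole span is MCF10Ca1a against MCF10A. A gene is called where the quasi-likelihood test of edgeR, with the Benjamini-Hochberg method over all genes tested, gave an adjusted p under 0.05. At the first step MTAP, KLHL9, DMRTA1 and FOCAD were called, each higher in MCF10AT1, where 61.6% of all 17910 genes tested were called and 29.8% were called higher. Over the whole span the same 4 were higher and IFNE was not called, against 80.9% of all genes called, 39.0% higher. At the second step MTAP and FOCAD were higher, KLHL9 was lower and DMRTA1 was not called, against 78.4% of all genes called, 38.0% higher and 40.3% lower. Most genes differed between these lines, so a call by itself sets none of the 5 apart. The 3 comparisons share libraries, each line entering 2 of them.

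**Figure D2:**
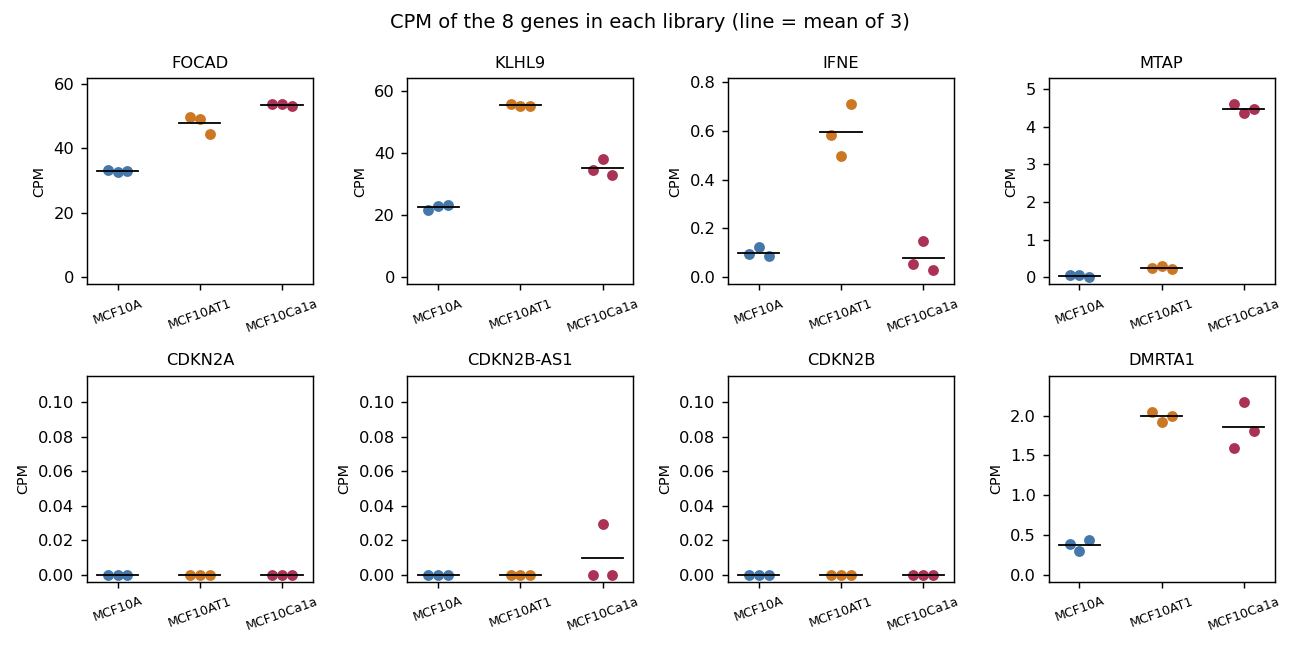
CPM of the 8 genes in each of the 9 libraries (points) with the mean of 3 (line), one panel per gene in chromosomal order, each with its own linear axis. CDKN2A and CDKN2B are at 0 throughout, MTAP rises from at most 0.0618 CPM in MCF10A to at least 4.37 CPM in MCF10Ca1a, and KLHL9 and IFNE are highest in MCF10AT1.

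MTAP, the methylthioadenosine phosphorylase that returns a by-product of polyamine synthesis to methionine and adenine, differed most of the 5 in both comparisons of MCF10Ca1a. At the first step its fitted log2 fold change of 2.72 (SE 0.47) was close to those of IFNE at 2.54 and DMRTA1 at 2.39. MTAP (ENSG00000099810.21, chr9:21802543-21937651, plus strand) had 3, 4 and 0 counts in the MCF10A libraries, 16, 19 and 13 counts in MCF10AT1, and then 165, 147 and 158 in MCF10Ca1a. The ranges of the 3 lines did not overlap, and MCF10A was at the edge of detection, with replicate 3 at 0. In CPM these were 0.0362 ± 0.0322 (SD, n = 3), 0.244 ± 0.0393 (SD, n = 3) and 4.48 ± 0.117 (SD, n = 3).
The log2 fold change of MTAP was 2.72 (SE 0.47, edgeR adjusted p 0.000192) at the first step, 6.90 (SE 0.33, adjusted p 1.5e-10) over the whole span and 4.17 (SE 0.247, adjusted p 1.87e-09) at the second step. MTAP thus rose at both steps. Since MCF10A holds only 7 counts in all, the ratio of summed CPM is given with its exact 95% interval for counting error: 6.99 (3.14 to 18.3) at the first step, and 127 (61.3 to 318) over the whole span. Leaving out MCF10A replicate 2 or replicate 3 moved the log2 fold change at the first step to 3.32 or 2.13, and over the whole span to 7.49 or 6.29, with every call kept, and the scaled counts gave 3.30 at the first step. Per length, MTAP reached 5.40 ± 0.201 TPM (SD, n = 3) in MCF10Ca1a, below KLHL9 at 13.1 ± 1.02 TPM (SD, n = 3) and FOCAD at 17.1 ± 0.367 TPM (SD, n = 3) in the same libraries.

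Nearly all MTAP counts were assigned to 1 of 13 annotated transcripts. MTAP-209 (ENST00000580718.1), which the annotation types as a target of nonsense-mediated decay, the pathway that degrades messages with an early stop, took 100% of the MTAP counts in MCF10A, 91.7% in MCF10AT1 and 96.3% in MCF10Ca1a. Its estimated counts were 3, 4 and 0 in the libraries of MCF10A, 14.5, 19 and 10.3 in those of MCF10AT1, and 156, 138 and 158 in those of MCF10Ca1a. The protein-coding MTAP-204 held 7.11 and 7.96 counts in MCF10Ca1a replicates 1 and 2 and 0 in the other libraries, and MTAP-206 held at most 2.73. The other 10 were at 0 in every library, among them MTAP-214, a protein-coding transcript of 8 exons. The main coding transcript of the annotation, MTAP-201, has no row in the tables used here, and the assignment of reads between transcripts carries an uncertainty that these files do not give, so no test was made.
MTAP-209 and MTAP-201 both have 8 exons, of which exons 2 to 6 are the same, and differ at the start of exon 1, at the start of exon 7 and in the last exon. Exon 1 has 239 bases in MTAP-201 and 120 in MTAP-209. The junction of exons 6 and 7 is printed from the GENCODE 29 transcripts, since it is where the coding sequence departs, with 20 bases before it and 19 after, and the 17 bases that MTAP-209 adds in capitals.
MTAP-201 (exon 7 from chr9:21859303): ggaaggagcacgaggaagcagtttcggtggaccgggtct
MTAP-209 (exon 7 from chr9:21859286): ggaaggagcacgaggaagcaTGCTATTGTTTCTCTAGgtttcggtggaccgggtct
The last exon of MTAP-209 has 392 bases and that of MTAP-201 has 5103, so that the whole transcripts have 1309 and 6122 bases. Counts of a transcript are divided by its length to give TPM, so the TPM of MTAP rests on the shorter of these models.

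**Figure D3:**
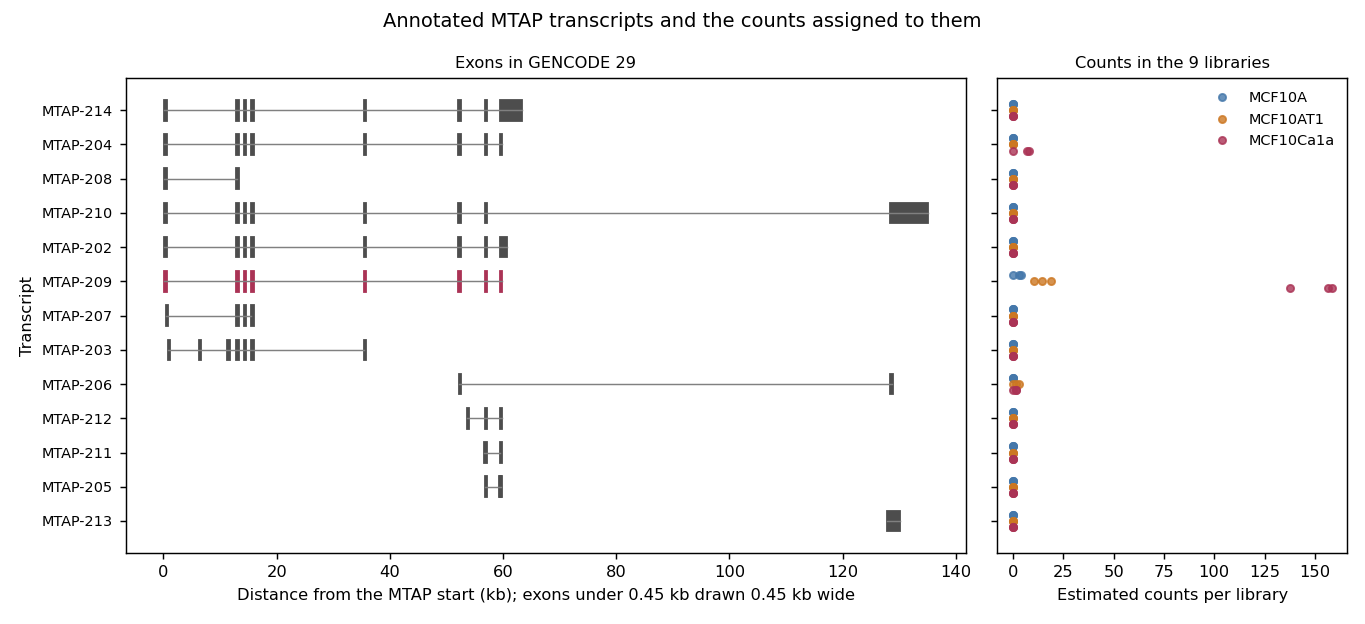
Exons of the 13 MTAP transcripts in the tables (left, distance from the MTAP start in kb) and the estimated counts assigned to each in the 9 libraries (right). MTAP-209, in red, holds nearly all counts, from 138 to 158 in the MCF10Ca1a libraries, and 10 transcripts hold none.

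FOCAD, which encodes focadhesin, a protein that stabilises the RNA-degrading SKI complex, lies farthest from CDKN2A of the set, at -1337 kb. FOCAD (ENSG00000188352.13, chr9:20658309-20995955, plus strand) had 33.4, 32.7 and 32.9 CPM in MCF10A, 49.8, 49.1 and 44.5 CPM in MCF10AT1, and then 53.7, 53.7 and 53.1 in MCF10Ca1a. The ranges did not overlap and rose in that order. Such an order, with the ranges of the lines apart, was also that of MTAP and of 11.8% of all genes tested. FOCAD was higher by a log2 fold change of 0.53 (SE 0.0512, edgeR adjusted p 7.74e-07) at the first step and of 0.70 (SE 0.0521, adjusted p 1.96e-08) over the whole span. The difference between MCF10Ca1a and MCF10AT1 was small, with a log2 fold change of 0.16 (SE 0.0515, adjusted p 0.0111), and it depended on the settings. It was 0.10 (adjusted p 0.0688) without MCF10AT1 replicate 3 and 0.07 (adjusted p 0.393) with no filter, and it turned to -0.04 and -0.03 on the length-scaled and the scaled counts. Of 16 FOCAD transcripts 14 had counts and 10 passed 3 in some library, and FOCAD-201 (ENST00000338382.11) took 87.9% of the counts of MCF10A and 94.6% or more of those of the other lines.

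KLHL9, an adaptor of the CUL3 ubiquitin ligase that acts on Aurora B in mitosis, was highest in MCF10AT1. KLHL9 (ENSG00000198642.7, chr9:21329671-21335380, minus strand) had 21.8, 23.1 and 23.3 CPM in MCF10A, 55.8, 55.4 and 55.4 CPM in MCF10AT1, and then 34.7, 38.1 and 33.0 in MCF10Ca1a. The ranges did not overlap, with MCF10A lowest. Its log2 fold change was 1.29 (SE 0.0566, edgeR adjusted p 2.65e-10) at the first step, 0.63 (SE 0.0583, adjusted p 1.88e-07) over the whole span and -0.65 (SE 0.0567, adjusted p 1.09e-07) at the second step. KLHL9 thus rose at the first step and fell at the second without returning to the level of MCF10A.

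IFNE, which encodes interferon epsilon, a type I interferon made constitutively by epithelium of the reproductive tract, was the one interferon gene of the cluster to be tested. IFNE (ENSG00000184995.7, chr9:21480839-21482313, minus strand) had 6, 8 and 6 counts in MCF10A, 39, 33 and 44 counts in MCF10AT1, and then 2, 5 and 1 in MCF10Ca1a. MCF10AT1 was above both other lines in every library, a pattern that 15.3% of all genes tested shared, whereas the CPM ranges of MCF10A and MCF10Ca1a overlapped. The fitted log2 fold change of IFNE was 2.54 (SE 0.348) at the first step and -2.93 (SE 0.427) at the second, which became -3.76 without MCF10Ca1a replicate 2. No test is given for these, since a gene that passed the filter only through MCF10AT1 had to be high there. In MCF10Ca1a against MCF10A it was -0.39 (SE 0.553, edgeR adjusted p 0.532), and the ratio of summed CPM was 0.758, with an exact 95% interval for counting error of 0.289 to 1.80, on 8 counts against 20.
IFNE lies within MIR31HG, a long RNA that hosts the microRNA miR-31, on the same strand, so the reads of an unspliced MIR31HG and of IFNE cannot be told apart. MIR31HG had 60, 77 and 81 counts in MCF10A, 510, 485 and 394 counts in MCF10AT1, and then 78, 77 and 78 in MCF10Ca1a. It too was highest in MCF10AT1, with log2 fold changes of 2.69 (edgeR adjusted p 4.2e-10) at the first step and -1.68 (adjusted p 1.68e-08) at the second. Over the whole span MIR31HG was higher by 1.02 (edgeR adjusted p 1.2e-05), whereas IFNE was not called there. Its mean was 1.1 CPM in MCF10A and 2.22 CPM in MCF10Ca1a, whose libraries are shallower. The part of MIR31HG in the counts of IFNE was not tested.

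DMRTA1, a gene of the doublesex family of DM-domain transcription factors, was the nearest protein-coding gene with counts on the upper side of CDKN2A. DMRTA1 (ENSG00000176399.4, chr9:22446841-22455740, plus strand) had 25, 19 and 31 counts in MCF10A, 137, 127 and 124 counts in MCF10AT1, and then 57, 73 and 64 in MCF10Ca1a, whose libraries are shallower. In CPM these were 0.376 ± 0.0763 (SD, n = 3), 1.99 ± 0.0693 (SD, n = 3) and 1.86 ± 0.292 (SD, n = 3). MCF10A was below the other lines in every library, and the ranges of MCF10AT1 and MCF10Ca1a overlapped. The log2 fold change of DMRTA1 was 2.39 (SE 0.185, edgeR adjusted p 8.63e-08) at the first step and 2.29 (SE 0.195, adjusted p 7.69e-08) over the whole span. Between MCF10Ca1a and MCF10AT1 it was -0.10 (SE 0.164, adjusted p 0.58), with a ratio of summed CPM of 0.93 and an exact 95% interval for counting error of 0.778 to 1.11.

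Per length, the order in MCF10A was FOCAD at 10.2 ± 1.14 TPM (SD, n = 3), KLHL9 at 7.79 ± 0.178, DMRTA1 at 0.154 ± 0.0287, IFNE at 0.133 ± 0.0269 and MTAP at 0.040 ± 0.0352, the last at the edge of detection. DMRTA1 and IFNE did not differ beyond their spread there. In MCF10AT1 KLHL9 led with 17.3 ± 0.382 TPM (SD, n = 3), before FOCAD with 14.3 ± 1.43, DMRTA1 with 0.723 ± 0.0371, IFNE with 0.709 ± 0.115 and MTAP with 0.338 ± 0.0647, and DMRTA1 and IFNE were again within their spread. In MCF10Ca1a MTAP stood behind FOCAD and KLHL9 and above DMRTA1 at 0.825 ± 0.129 TPM (SD, n = 3) and IFNE at 0.109 ± 0.0879. The place of MTAP in the order was thus the one that moved most from MCF10A to MCF10Ca1a.

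The other genes within 5 Mb were read in the same fit. Of 25 genes tested there 19 (76.0%) were called in MCF10AT1 against MCF10A, all of them higher, where 61.6% of all genes were called and 29.8% called higher. The median log2 fold change over the 25 was 0.64. Chromosome 9 as a whole was also above the rest in that comparison, with a median of 0.48 over its 694 genes tested, against 0.00 over all genes, and FOCAD lay close to the chromosome's median. In MCF10Ca1a against MCF10A 21 (84.0%) were called, 15 higher and 6 lower, near the 80.9% of all genes, with a median of 0.70, against 0.33 on chromosome 9 and -0.05 over all genes. In MCF10Ca1a against MCF10AT1 19 (76.0%) were called, 8 higher and 11 lower, near the 78.4% of all genes, with a median of -0.10, against -0.15 and -0.04. The counts include the 5 genes described above, and some of the 25 passed the filter only through the line in which they were high.

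**Figure D4:**
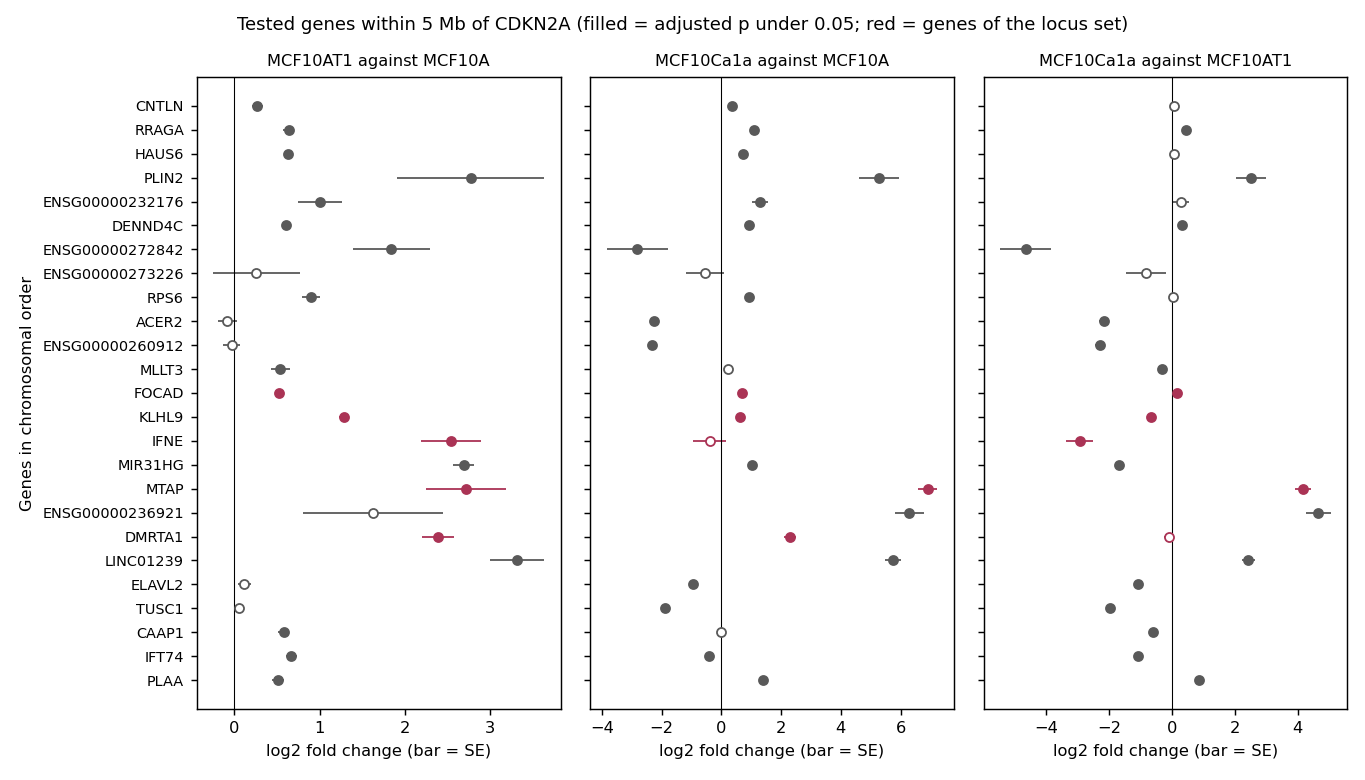
Log2 fold changes with SE for the 25 tested genes within 5 Mb of CDKN2A in chromosomal order, one panel per comparison, filled where the edgeR adjusted p was under 0.05 and in red for genes of the set. In MCF10AT1 against MCF10A no gene was called lower, and in both MCF10Ca1a comparisons MTAP and ENSG00000236921, at the ends of the silent run, have the 2 largest fitted rises; ENSG00000272842 has a fitted fall as large or larger in MCF10Ca1a against MCF10AT1, at -4.65.

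The genes that bound the silent run had their highest counts in MCF10Ca1a. They end the run because they pass 3 counts in some library, and ENSG00000236921 passed the filter on low counts through MCF10Ca1a alone, so that it had to be high there and its values are a description. ENSG00000236921 (chr9:22203990-22214672, minus strand), the long intergenic RNA at its upper end, had 0, 1 and 1 counts in MCF10A, 4, 1 and 2 counts in MCF10AT1, and then 36, 32 and 32 in MCF10Ca1a. MCF10Ca1a was above the other lines in every library, which overlapped each other. Against the floor of 3 counts per library it was at least 19.3-fold higher in MCF10Ca1a than in MCF10A. At the second step the ratio of summed CPM was 26.6, with an exact 95% interval for counting error of 12.4 to 67.8, on 100 counts against 7. MCF10A and MCF10AT1 were both near the floor, and no fold is given between them.
LINC01239, a long intergenic RNA 650.9 kb above the CDKN2A start, had 2, 6 and 3 counts in MCF10A, 36, 36 and 39 counts in MCF10AT1, and then 124, 96 and 104 in MCF10Ca1a. The lines did not overlap, and its rise in MCF10AT1 against MCF10A, 3.31 on the log2 scale (SE 0.315, edgeR adjusted p 7.26e-07), was the largest fitted one of the window in that comparison. LINC01239 passed the filter through MCF10AT1 and MCF10Ca1a, and PLIN2 through MCF10Ca1a alone. PLIN2, which encodes a coat protein of lipid droplets and starts at -2846 kb from CDKN2A, had 2, 0 and 0 counts in MCF10A, 8, 4 and 4 counts in MCF10AT1, and then 15, 12 and 23 in MCF10Ca1a. It was at least 1.29-fold higher in MCF10AT1 (adjusted p 0.0126) and at least 7.62-fold higher in MCF10Ca1a than in MCF10A.
The genes with the lowest fitted log2 fold changes of the window in MCF10Ca1a against MCF10A lay farther away. ENSG00000260912, at -2542 kb from CDKN2A, had 234, 213 and 248 counts in MCF10A, 234, 224 and 212 counts in MCF10AT1, and then 25, 25 and 23 in MCF10Ca1a, a log2 fold change of -2.33 (SE 0.132, edgeR adjusted p 9.81e-10) in MCF10Ca1a against MCF10A. ENSG00000272842, an antisense model at -2623 kb, had 6, 2 and 8, then 21, 14 and 22, then 1, 0 and 0 counts in the same order of lines, and was at least 2.37-fold lower in MCF10Ca1a than in MCF10AT1. It passed the filter through MCF10AT1 alone. Against MCF10A the floor of 3 counts gives no bound for a fall, and the ratio of summed CPM was 0.118, with an exact 95% interval for counting error of 0.00282 to 0.762, on 1 count against 16. As an antisense gene counted with an unknown strand setting, it is uncertain.

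The pathway that p16INK4a and p15INK4b feed was read from a list of 13 genes: the other INK4 inhibitors, the D cyclins, CDK4 and CDK6, the RB family and the activating E2F factors. All 13 were tested. In MCF10AT1 against MCF10A 3 were higher and 8 lower, where 61.6% of all genes were called and 31.8% called lower, with a median log2 fold change of -0.28 over the list, against 0.00 over all genes. In MCF10Ca1a against MCF10A 3 were higher and 10 lower, where 80.9% were called and 41.9% called lower, with a median of -0.59 against -0.05. In MCF10Ca1a against MCF10AT1 2 were higher and 8 lower, where 78.4% were called and 40.3% called lower, with a median of -0.62 against -0.04. On log2(TPM + 1) 4 were higher and 7 lower in the last of these (limma). In MCF10Ca1a against MCF10A the number lower ran from 7 to 10 over the alternatives.
The remaining INK4 genes moved in opposite directions in MCF10Ca1a. CDKN2C, which encodes p18INK4c, had 18.6 CPM in MCF10A, 13.9 in MCF10AT1 and 1.85 in MCF10Ca1a, with a log2 fold change of -3.33 (SE 0.112, edgeR adjusted p 4.02e-12) in MCF10Ca1a against MCF10A. CDKN2D, which encodes p19INK4d, had 5.59, 4.78 and 18.5 CPM in the same order, with a log2 fold change of 1.73 (SE 0.0753, adjusted p 5.58e-11). Per length CDKN2D was the most abundant INK4 gene in MCF10Ca1a, at 26.3 ± 0.582 TPM (SD, n = 3), and CDKN2C in MCF10A, at 18.3 ± 2.18 TPM (SD, n = 3), beside 0 TPM of CDKN2A and CDKN2B in both.
Of the D cyclins, which activate CDK4 and CDK6, CCND2 was the most different. CCND2 had 1522, 1257 and 1449 counts in MCF10A, 0, 1 and 0 counts in MCF10AT1, and then 1, 0 and 0 in MCF10Ca1a. It was at least 402-fold lower in MCF10AT1 and at least 218-fold lower in MCF10Ca1a than in MCF10A, and no fold is given between the lines at the floor. CCND2 passed the filter through MCF10A alone, so these differences are a description with no test, although the counts of the list include it among the lower genes against MCF10A. CCND3 fell by 0.69 on the log2 scale in MCF10AT1 (edgeR adjusted p 2.28e-07) and by 2.74 in MCF10Ca1a (adjusted p 1.87e-13), both against MCF10A. CCND1 rose by 0.59 in MCF10AT1 (adjusted p 4.43e-06) and fell by 0.25 in MCF10Ca1a (adjusted p 0.00419) against MCF10A, the latter call being lost on log2(TPM + 1) (limma, -0.12, adjusted p 0.277). Per length CCND1 was above CCND3 in the lines without CCND2, at 99.5 against 43.9 TPM on average in MCF10AT1 and 66.9 against 12.6 in MCF10Ca1a.
The kinases differed by less than 1 on the log2 scale. CDK6 rose by 0.54 (edgeR adjusted p 2.66e-06) in MCF10AT1 and by 0.59 (adjusted p 4.15e-07) in MCF10Ca1a against MCF10A, with a difference of 0.05 between MCF10Ca1a and MCF10AT1 that was not called (adjusted p 0.405). CDK4 had a log2 fold change of 0.00 (adjusted p 0.976) in MCF10AT1 and of -0.62 (adjusted p 3.63e-08) in MCF10Ca1a. Both stayed between 17.4 and 133 TPM on average per line.
RB1, the kinases' main target, fell against MCF10A, with log2 fold changes of -0.35 (edgeR adjusted p 6.14e-05) at the first step and -0.59 (adjusted p 1.58e-07) over the whole span. At the second step its direction depended on the unit: it was -0.24 on counts (adjusted p 0.000937) and 0.05 on log2(TPM + 1) (limma, adjusted p 0.57), with 43.2 ± 2.22 TPM (SD, n = 3) in MCF10AT1 and 44.6 ± 1.12 in MCF10Ca1a. Its relative RBL1 fell too, with -1.04 at the first step, -2.01 over the whole span and -0.96 at the second step, each called. RBL2 did not pass in the first, at -0.01 (adjusted p 0.918), and rose by 0.82 and 0.83 in the others. Of the E2F factors, which RB proteins hold inactive, E2F2 fell, with -0.66 at the first step and -2.66 over the whole span, both called. E2F1 rose at the first step (0.49) and fell at the second (-0.65). Over the whole span E2F1 was at -0.16 (edgeR adjusted p 0.0326), a call lost in several alternatives, among them the DESeq2 Wald test (-0.12, adjusted p 0.177). E2F3 fell against MCF10A, with -0.28 at the first step and -0.33 over the whole span, the latter not called on log2(TPM + 1) (limma, -0.18, adjusted p 0.0511), and was not called between MCF10Ca1a and MCF10AT1, at -0.05 (adjusted p 0.353).

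**Figure D5:**
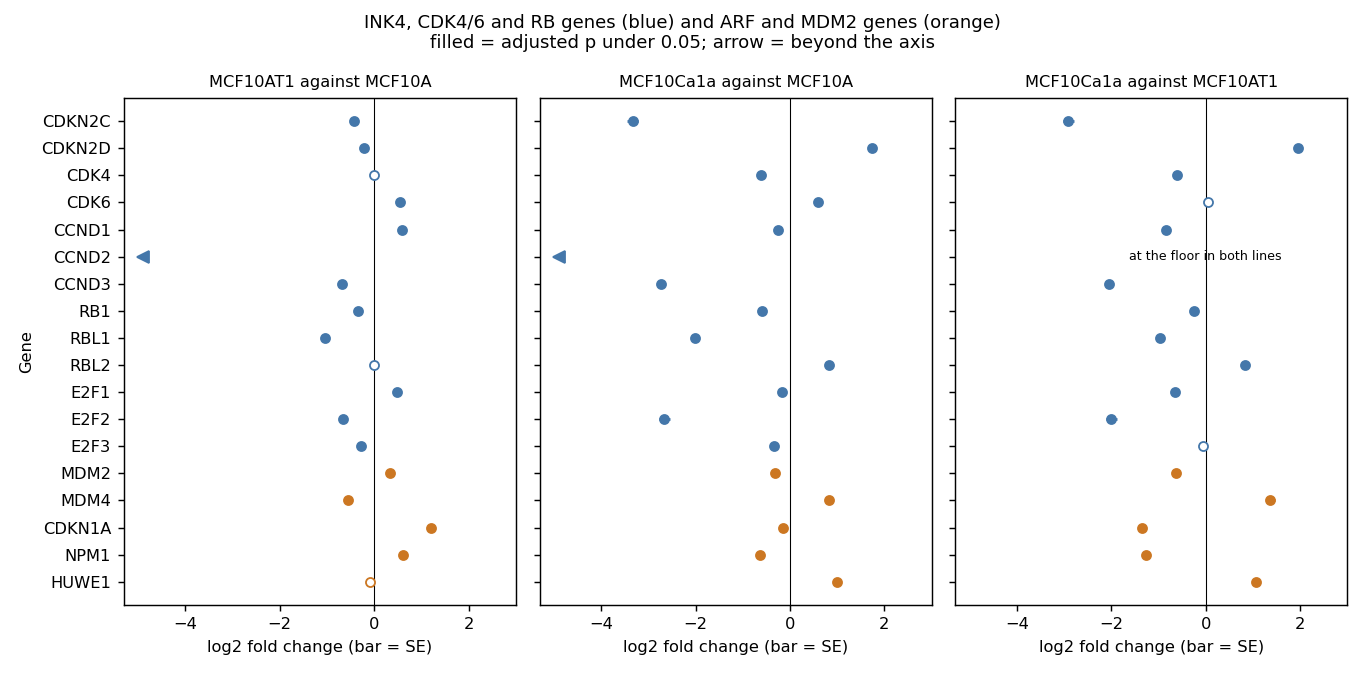
Log2 fold changes with SE of the 13 INK4, CDK4/6 and RB genes (blue) and the 5 ARF and MDM2 genes (orange) in the 3 comparisons, filled where the edgeR adjusted p was under 0.05, with arrows for values beyond the axis. CCND2 lies off the axis against MCF10A, and CDKN2C and CDKN2D point in opposite directions in MCF10Ca1a.

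The pathway of p14ARF was read from 5 genes, all tested. At the first step, MCF10AT1 against MCF10A, 3 were higher and 1 lower, where 61.6% of all genes were called, with a median log2 fold change of 0.33 against 0.00 over all genes. Over the whole span, MCF10Ca1a against MCF10A, 2 were higher and 3 lower, where 80.9% were called, with a median of -0.15 against -0.05, and at the second step, MCF10Ca1a against MCF10AT1, 2 were higher and 3 lower, where 78.4% were called, with a median of -0.63 against -0.04. At the first step 2 were lower on log2(TPM + 1) (limma) and without MCF10AT1 replicate 3. So few genes cannot be set apart from a background of this size by their count. MDM2, the ubiquitin ligase that p14ARF binds, had log2 fold changes of 0.33 (edgeR adjusted p 4.75e-05), -0.31 (adjusted p 5.2e-05) and -0.63 (adjusted p 3.1e-08) at the first step, over the whole span and at the second step. Its relative MDM4 went the other way in each, at -0.55, 0.83 and 1.37, each called. CDKN1A, which encodes the CDK inhibitor p21, had 156 CPM in MCF10A, 360.2 in MCF10AT1 and 141 in MCF10Ca1a. Over the whole span it was at -0.15 (edgeR adjusted p 0.0271), a call lost in several alternatives, among them the DESeq2 Wald test (-0.11, adjusted p 0.0736). It rose by 1.21 (SE 0.0564, edgeR adjusted p 5.06e-10) at the first step and fell by 1.35 (SE 0.057, adjusted p 5.56e-11) at the second. NPM1, a nucleolar protein that binds p14ARF, rose by 0.61 and fell by 1.26 at the same steps. HUWE1, another ubiquitin ligase that p14ARF binds, was not called at the first, at -0.08 (adjusted p 0.446), and rose by 1.06 at the second.

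The other lists follow the remaining genes of the set and the factors known to act on the locus. Their counts stand against 61.6% of all genes called at the first step (29.8% higher and 31.8% lower), 80.9% over the whole span (39.0% and 41.9%) and 78.4% at the second step (38.0% and 40.3%). Of 14 regulators of the locus, Polycomb proteins, a demethylase, T-box, ID and ETS factors, 5 were higher and 7 lower in MCF10AT1 against MCF10A, 6 and 6 in MCF10Ca1a against MCF10A, and 7 and 7 in MCF10Ca1a against MCF10AT1, with medians of -0.06, -0.10 and -0.02. The count at the first step depended on the unit: on log2(TPM + 1) 2 were higher, with the calls of CBX7, KDM6B and ETS1 lost (limma, adjusted p 0.434, 0.85 and 0.453). EED, one of those lower, lost its call under 14 of the alternatives. In MCF10Ca1a against MCF10A CBX7, a Polycomb protein that represses the locus, rose most, by a log2 fold change of 2.66 (SE 0.13, edgeR adjusted p 1.95e-10), and TBX3, a repressor of p14ARF, fell most (-2.51, SE 0.0927, adjusted p 1.03e-11). CBX7 was at 0.647 ± 0.154 TPM (SD, n = 3) in MCF10A and 4.76 ± 0.508 in MCF10Ca1a, and TBX3 at 6.65 ± 0.253 and 1.08 ± 0.0847.
Of 11 polyamine and methionine salvage genes, the pathway around MTAP with the methyltransferase PRMT5, which the MTAP substrate inhibits, 5 were higher and 4 lower in MCF10AT1 against MCF10A. In each comparison of MCF10Ca1a 1 was higher and 8 were lower, so that the share called was near that of all genes (80.9% and 78.4%). On log2(TPM + 1) 2 were higher and 4 lower at the first step, where AMD1 and ENOPH1 lost the call and MRI1 turned to -0.04 (limma, adjusted p 0.106, 0.0938 and 0.63). In the same fit 3 were higher and 6 lower at the second step, where SRM turned to 0.11 (adjusted p 0.209). MAT2A lost its call at the first step under 12 of the alternatives. The median log2 fold change was 0.04, -0.37 and -0.58 at the first step, over the whole span and at the second step, against 0.00, -0.05 and -0.04 over all genes. APIP, which acts in the salvage steps after MTAP, rose most in MCF10Ca1a against MCF10A, by 0.58 (SE 0.0651, edgeR adjusted p 1.59e-06), and ADI1, a later enzyme of the same steps, fell most (-1.92, SE 0.0612, adjusted p 2.31e-12).
Of 7 genes of the receptor and signal that IFNE uses, 6 were lower and 0 higher in MCF10AT1 against MCF10A, where 31.8% of all genes were lower, with a median of -0.27 against 0.00. The calls of IFNAR1 and IRF9 were lost on the scaled counts (edgeR adjusted p 0.104 and 0.624). In MCF10Ca1a 3 were higher and 3 lower against MCF10A, and 5 higher and 1 lower against MCF10AT1. On log2(TPM + 1) 4 were higher and 1 lower against MCF10A (limma), and 2 were lower against MCF10AT1 with no filter and without MCF10A replicate 1, MCF10A replicate 3, MCF10AT1 replicate 2 or MCF10Ca1a replicate 1. The kinase JAK1 rose most in MCF10Ca1a against MCF10A, by 1.14 (SE 0.0617, edgeR adjusted p 5.39e-10), and the receptor chain IFNAR2 fell most (-1.04, SE 0.0574, adjusted p 7.19e-10).
Of 5 partners of KLHL9, 2 were higher and 2 lower in MCF10AT1 against MCF10A, and 2 higher and 3 lower in each comparison of MCF10Ca1a, where most genes were called (61.6%, 80.9% and 78.4%). The call of CUL3 at the first step, at 0.14, was lost on the scaled counts (edgeR adjusted p 0.118) and without MCF10A replicate 2 or 3, MCF10AT1 replicate 1 or 2, or MCF10Ca1a replicate 1 or 3. KLHL13, an adaptor that works with KLHL9 on Aurora B, had 674, 605 and 660 counts in MCF10A, 24, 12 and 17 counts in MCF10AT1, and then 2, 0 and 0 in MCF10Ca1a. It fell by 5.16 on the log2 scale in MCF10AT1 (SE 0.2, edgeR adjusted p 7.72e-11) and was at least 105-fold lower in MCF10Ca1a than in MCF10A (adjusted p 1.57e-11). KLHL21 rose most in MCF10Ca1a against MCF10A, by 1.51 (SE 0.0655, adjusted p 5.22e-11).
Of the 3 SKI complex genes, with which FOCAD works, 1 was called in MCF10AT1 against MCF10A and 2 in each comparison of MCF10Ca1a, against 61.6%, 80.9% and 78.4% of all genes. The call at the first step, SKIC8 at 0.20, was lost on the scaled counts (edgeR adjusted p 0.0949) and when any library other than MCF10A replicate 3 was left out. In MCF10Ca1a against MCF10A SKIC2 rose by 0.85 (SE 0.0519, edgeR adjusted p 1.97e-09) and SKIC8 fell by 0.80 (SE 0.0872, adjusted p 1.2e-06).

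For each tested gene of the set the genes with the most similar profile were found, by the root mean square distance between log2 CPM over the 9 libraries after the mean of each profile is removed. Those nearest to MTAP were SEMA5A at a distance of 0.222 and IL13RA2 at 0.306, against a median of 2.60 over all genes. Nearest to KLHL9 were ELL2 at 0.0637 and DKK1 at 0.0776 (median 0.729), and nearest to IFNE were NPBWR1 at 0.286 and PPP1R16B at 0.34 (median 1.29). Those nearest to DMRTA1 were FAM131C at 0.147 and SSPN at 0.157 (median 1.18), and to FOCAD PMPCA at 0.0352, which is on chromosome 9 too, and EGLN2 at 0.047 (median 0.574). None of the 8 genes was among these nearest profiles of another. The distances describe 9 libraries of 3 lines that share their depths, and no test was made.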

How the data were processed

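Per the labels, polyadenylated RNA of 3 lines was made into stranded libraries, 3 per line. The authors deposited estimated counts per gene and per transcript, length-scaled and scaled counts, and TPM. Salmon and the build hg38 are named in the submitters' processing notes, and the annotation and strand setting are not given in the sources used here.

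The 8 genes and all gene lists were chosen with earlier results of these data known. The ARF list was first drawn up with 1 more gene, which is not reported here and enters no count of the list. Estimated counts were rounded. Genes were filtered with filterByExpr (at least 10 counts, total 15), which kept 17910 of 62666. Lines were compared by the quasi-likelihood test of edgeR 4.0.16 (R 4.3.3) with TMM, all 9 libraries in 1 fit, and Benjamini-Hochberg adjustment over all genes tested at 0.05. It was tested on simulated data. CPM uses TMM-scaled library totals. Each SE was derived from the log2 fold change and the F value. A floor of 3 counts per library was used for lower bounds. Intervals are exact binomial at 95% and hold for counting error alone, because the reads carry no molecular identifiers. Unversioned identifiers matched GENCODE 29 positions on GRCh38 for 58227 genes (92.9%).

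The rule for named genes took the 8 genes, the nearest protein-coding genes above the floor, the 2 largest called rises and falls within 5 Mb per comparison, every gene of the INK4 and ARF lists, the largest rise and fall of the other lists in MCF10Ca1a against MCF10A, and the 2 most similar profiles per tested gene. Genes in the silent run, the markers and MIR31HG were named after their values were seen. Alternatives were no filter, size factors of DESeq2, its Wald test (DESeq2 1.42.0), the 2 other count tables, a replicate block, limma 3.58.1 on log2(TPM + 1) and log2(TPM + 0.1), only the lines compared, each library left out in turn, and other floors and windows.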

Additional observations from a re-analysis of the deposited data

How the results depend on the processing

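The counts of genes called in the set, within 5 Mb and over all lists together, and of genes at the floor, stayed within 1.5 times of the values reported under every alternative run. For single lists this held for the genes called in either direction except for the SKI complex at the first step, which went from 1 to 0 under 14 alternatives. It did not hold for the counts by direction given with the lists. Of 269 alternative log2 fold changes of the 5 tested genes, 262 kept their direction and side of the threshold, 2 lost the call and 5 had the other sign before rounding. Those that lost it were FOCAD in MCF10Ca1a against MCF10AT1, at 0.07 with no filter and 0.10 without MCF10AT1 replicate 3. The latter were FOCAD there at -0.04 (length-scaled counts) and -0.03 (scaled counts), DMRTA1 there at 0.16 on log2(TPM + 0.1) and 0.08 on log2(TPM + 1), and IFNE in MCF10Ca1a against MCF10A, which ran from -1.22 to 0.00 as single libraries were left out and at 0.00 has no sign as printed. The cause was not tested. The last 2 genes were not called in those comparisons. A pseudocount shrinks thin genes by construction: on log2(TPM + 1) MTAP in MCF10AT1 against MCF10A was 0.36 with its call kept. The same-numbered libraries did not deviate together (correlations from -0.0597 to 0.0451), and with the replicate number as a block 4, 4 and 3 genes of the set other than IFNE were called, as without it (5, 4 and 4 with IFNE, for which no test against MCF10AT1 is given). Depth limits MTAP in MCF10A (7 counts over 3 libraries) and IFNE in MCF10Ca1a (8 counts), and MCF10Ca1a has the highest floor.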
